A study of Mus musculus with 384 samples.

Results

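Transcripts of 10 enzymes of serine synthesis, the folate one-carbon cycle and 2 adjoining steps were followed in single granulocyte/macrophage progenitors (GMPs), bone marrow precursors of neutrophils and monocytes. The enzymes were Phgdh, Psat1, Psph, Shmt1, Shmt2, Mthfd1, Mthfd1l, Mthfd2, Mtap and Asns, 10 of 46078 gene rows. They were listed by name after earlier results of these data were known. Level, joint variation and the relations to S phase and to fate genes all entered that choice, so every value of these genes below is a description and carries no test.

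Serine is made from the glycolytic intermediate 3-phosphoglycerate by Phgdh, Psat1 and Psph in turn. Serine hydroxymethyltransferases split serine into glycine and a one-carbon unit, which folate carries through the Mthfd enzymes in cytosol and mitochondria towards purine, thymidylate and methionine synthesis. Mtap returns methylthioadenosine, a by-product of polyamine synthesis, to the methionine and adenine pools, and Asns makes asparagine from aspartate and glutamine. Dividing cells need these products for nucleotides, and several of the enzyme genes are known targets of the stress-responsive factor ATF4.

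The BCR-ABL cells came from C57Bl/6 mice with the Scl-tTA::TRE-BCR/ABL transgenes, in which the tTA activator under the Scl element switches on the fusion oncogene of chronic myeloid leukaemia when doxycycline is removed. These mice were kept on 20 mg/L doxycycline in drinking water and induced by its withdrawal at 5 weeks of age. The same doxycycline level and induction age are listed for the Control set. BCR-ABL and control animals were taken 5 to 6 weeks after induction. The genotype of the control mice is not given in the sources used here, nor whether the sets are separate animals. Each set is a 96-well plate of single cells sorted as lineage-negative, c-Kit+, Sca-1-, CD34+ and FcγR+. The BCR-ABL sets are replicates 1, 2 and 4, and there is 1 Control set.

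A well was kept if it had 50000 gene reads or more over 1000 genes or more, which left 76, 61 and 92 cells in BCR-ABL replicates 1, 2 and 4 and 94 in Control, 323 of 384 in all. Summed over cells the sets held between 121378632 and 140995697 gene reads. The gate's genes were present: Kit stood at 256, 240.1 and 314 counts per 1000000 gene reads (CPM) in the BCR-ABL sets and 239 CPM in Control, and Ly6a (Sca-1) was between 1.29 and 3.46 CPM in all 4 sets. Cd34 stood at 146, 180.5 and 158 CPM in BCR-ABL and 440.1 CPM in Control. Xist reached 5 CPM in 75 of 76, 0 of 61 and 3 of 92 BCR-ABL cells and in 94 of 94 Control cells, so sex-linked transcripts set replicates 2 and 4 apart from replicate 1 and Control. Among markers of other cell types, eosinophil genes summed to 1332 CPM in replicate 4 and to between 35.8 and 48.8 CPM elsewhere. Basophil and mast cell genes summed to 313, 516 and 266 CPM in BCR-ABL and 408 CPM in Control, while the summed T and NK markers reached at most 4.57 CPM. Their part in the values below was not tested.

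The promoter windows of 3 genes are printed because their genes mark the ends of the joint variation described below: Shmt2 and Phgdh made the pair with the highest mean correlation between cells, and Asns belonged to the pair with the lowest. Each is the 250 bases before the RefSeq start (GRCm38.p6), read 5′ to 3′ on the gene's own strand. Capitals mark a match to TGATGNAA, the letters searched for the ATF4 composite site.
Asns (chr6:7693210-7693459, minus strand): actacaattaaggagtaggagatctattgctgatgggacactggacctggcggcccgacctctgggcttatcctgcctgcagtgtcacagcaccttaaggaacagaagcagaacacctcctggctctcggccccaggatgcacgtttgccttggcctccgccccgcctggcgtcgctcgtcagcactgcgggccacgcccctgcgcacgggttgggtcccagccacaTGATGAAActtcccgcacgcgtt
Shmt2 (chr10:127522445-127522694, minus strand): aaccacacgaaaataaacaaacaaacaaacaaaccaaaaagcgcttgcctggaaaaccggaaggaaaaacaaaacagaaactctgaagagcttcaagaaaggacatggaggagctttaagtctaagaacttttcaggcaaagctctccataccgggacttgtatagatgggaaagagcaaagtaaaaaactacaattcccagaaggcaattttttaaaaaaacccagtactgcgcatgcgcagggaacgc
Phgdh (chr3:98339970-98340219, minus strand): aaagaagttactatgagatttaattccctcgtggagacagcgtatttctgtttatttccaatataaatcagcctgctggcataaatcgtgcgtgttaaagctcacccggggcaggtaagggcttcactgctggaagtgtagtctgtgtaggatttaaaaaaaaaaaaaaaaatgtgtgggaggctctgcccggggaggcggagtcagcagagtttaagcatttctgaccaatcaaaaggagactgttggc
Among the 11 windows of the 10 genes (Psat1 has 2), only that of Asns held TGATGNAA, which began 23 bases before the start. Searched on both strands, these letters occurred in 3.45% of 32851 such windows. The E-box CACGTG was in 6.02% of all windows, and the E2F letters TTTGGCGC and TTTCGCGC were in 0.417% and 0.256%. None of these 3 was in a window of the 10 genes, which says only that the letters were not in these bases.

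The first question was how much of each enzyme's transcript the progenitors held. Counts were summed over the cells of a set and given as CPM with TMM scaling, so fewer cells that make a transcript and less RNA per cell cannot be told apart in these sums. Per kilobase of exon, Shmt2, the mitochondrial serine hydroxymethyltransferase, had the highest level, with 102 ± 20.0 CPM per kb in BCR-ABL (SD, n = 3) and 90.2 in Control. Psat1, the transaminase of serine synthesis, came next with 68.5 ± 13.8 CPM per kb in BCR-ABL and 59.6 in Control. Phgdh, whose dehydrogenase step opens the pathway, held 41.1 ± 5.07 CPM per kb in BCR-ABL and 37.8 in Control. Over the BCR-ABL sets the lowest Shmt2 value (78.5) met the highest Psat1 value (78.7), but within each of the 4 sets Shmt2 was higher. The lowest Psat1 value (52.8) lay above the highest Phgdh value (45.7). Shmt1 (35.9 ± 2.45) and Mthfd1 (35.8 ± 8.48) overlapped Phgdh in their ranges over BCR-ABL sets, but within each of the 4 sets both were lower. Mthfd1l, Mtap, Psph, Asns and Mthfd2 followed between 24.3 and 17.9 CPM per kb with overlapping spreads. In Control the lowest of the 10 was Asns at 8.13 CPM per kb, below Psph at 12.6 and Mthfd2 at 13.5.

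Levels in the sets were then compared between BCR-ABL and Control, gene by gene on the TMM-scaled CPM scale. Asns, Psph and Shmt1 stood above Control in all 3 BCR-ABL sets. The other 7 enzymes overlapped, and none was below in all 3. Of all 20324 genes tested, 24.2% were above Control in all 3 BCR-ABL sets and 26.6% below, so the count of 3 among 10 is near the background and nothing is read from it. edgeR's quasi-likelihood test called 0 genes at an adjusted p under 0.05 (0% of those tested), with 1459 at an unadjusted p under 0.05, while DESeq2 called 562 and limma-voom 0. The median log2 difference of the 10 was 0.22, against 0.049 over all genes.

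**Figure D1:**
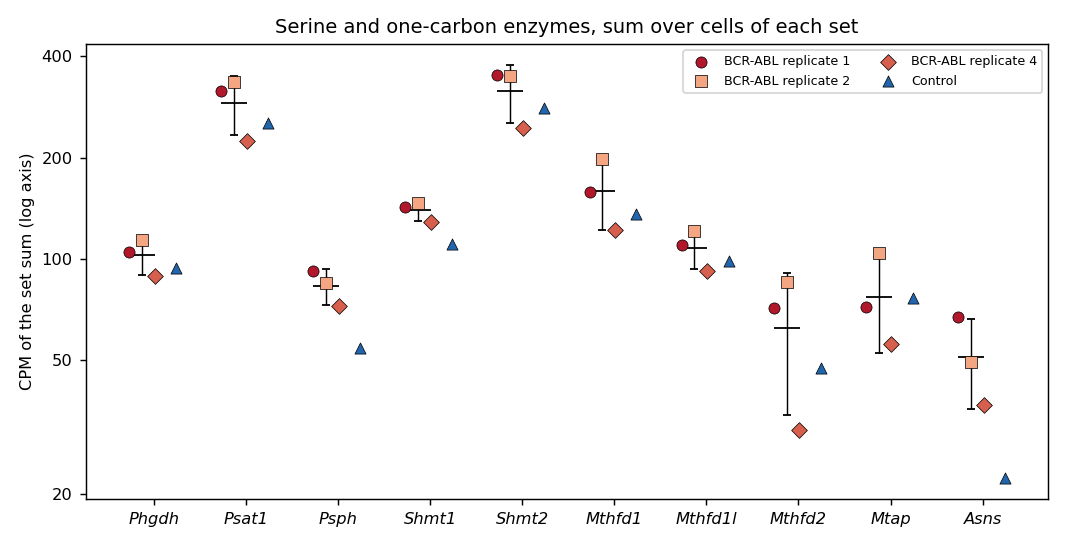
Level of each enzyme in the sum over cells of each set, as TMM-scaled CPM on a log axis. Red and orange symbols are the BCR-ABL sets with their mean and SD (black), and blue triangles are Control; Asns, Psph and Shmt1 have all 3 BCR-ABL symbols above the triangle, and replicate 4 is the lowest BCR-ABL symbol for every gene.

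Asns (ENSMUSG00000029752, mm10 chromosome 6, 7675169 to 7693254, minus strand), the asparagine synthetase, stood at 67.2, 49.2 and 36.7 CPM in BCR-ABL replicates 1, 2 and 4 and at 22.2 CPM in Control. Every BCR-ABL set was higher, with a log2 difference of 1.20 (SE 0.40). Psph (ENSMUSG00000029446, chromosome 5, 129765558 to 129787449, minus strand), the phosphatase that completes serine synthesis, had 92.1, 84.6 and 72.2 CPM in BCR-ABL and 54.4 CPM in Control. Its log2 difference was 0.61 (SE 0.20), and the BCR-ABL sets did not reach down to Control. It shares 452 exon bases with Cct6a on the opposite strand, and without a stated strand setting reads in that overlap cannot be told apart. Shmt1 (ENSMUSG00000020534, chromosome 11, 60788104 to 60811718, minus strand), the cytosolic serine hydroxymethyltransferase, had 143, 147 and 129 CPM in BCR-ABL and 111 CPM in Control. The log2 difference was 0.33 (SE 0.16), and Shmt1 shares 184 exon bases with Smcr8 on the opposite strand.

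For the other 7 enzymes replicate 4 was below Control. Mthfd2 (ENSMUSG00000005667, chromosome 6, 83305691 to 83325908, minus strand), the mitochondrial dehydrogenase/cyclohydrolase, had 71.2, 85.0 and 31 CPM in BCR-ABL and 47.2 CPM in Control. Replicates 1 and 2 were above Control and replicate 4 was below it. Shmt2 had 353, 350.4 and 244 CPM in BCR-ABL and 280.4 CPM in Control, and Psat1 had 315, 335 and 225 CPM in BCR-ABL and 253 CPM in Control. Both again had replicate 4 alone below Control. Mthfd1, the cytosolic enzyme with 3 folate activities, had 158, 197 and 122 CPM in BCR-ABL and 136 CPM in Control. Mthfd1l, which releases formate from mitochondria, had 109.8, 121 and 92.2 CPM in BCR-ABL and 98.5 CPM in Control. Phgdh had 104, 114 and 88.7 CPM in BCR-ABL and 93.9 CPM in Control. Mtap departed from this pattern: it had 71.7, 104 and 55.7 CPM in BCR-ABL and 76.3 CPM in Control, so that only replicate 2 was above. Without replicate 4, 9 of the 10 stood above Control in both remaining BCR-ABL sets. Of all genes tested in that setting, where fewer sets had to agree, 6546 of 19235 did so. Mthfd1 and Shmt2 share 37 and 32 exon bases with a gene on the opposite strand.

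The direction of these differences depended on how cells were averaged. When log2(CPM + 1) was averaged over kept cells and then over sets, Asns (1.08), Psph (0.71), Mthfd2 (0.21) and Shmt1 (0.19) were still higher in BCR-ABL. On that scale Mtap (-0.80), Psat1 (-0.52), Shmt2 (-0.43), Mthfd1 (-0.25), Mthfd1l (-0.23) and Phgdh (-0.15) were lower at the mean of the BCR-ABL sets. Only Psat1 and Shmt2 of these were below Control in every BCR-ABL set. Replicate 2 was above Control for the others, as was replicate 1 for Mthfd1, and for Mthfd2 replicate 4 was below it. These cells were not thinned. The shallowest had 50434, 110997 and 83380 gene reads in BCR-ABL and 476961 in Control. The part of depth in these averages was not tested. Scaled per spike-in read, 6 of the 10 stood above Control in all BCR-ABL sets, but that scaling moved the median of all genes to 0.17. It also put 6696 of 20324 genes above Control in all BCR-ABL sets, where TMM scaling put 4922.

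The distributions over single cells show both ends of this. Psat1 had its highest cell at 863, 826 and 697 CPM in BCR-ABL replicates 1, 2 and 4 and at 1054 CPM in Control. The lower quartile of Psat1 was 73.7, 46.2 and 85.4 CPM in BCR-ABL and 106 CPM in Control. For Shmt2 the lower quartile was 87, 134 and 82.1 CPM in BCR-ABL and 156 CPM in Control, and the upper quartile was 435, 449 and 277 CPM in BCR-ABL and 355 CPM in Control. In replicates 1 and 2 the middle of the Shmt2 distribution was therefore wider than in Control on both sides. These quartiles are from kept cells before thinning, with the unequal depths given above. Cells were also thinned to 674952 reads each, which left 65, 54 and 81 BCR-ABL cells and 90 Control cells, so that shares could be compared at 1 depth.

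Mthfd2 and Asns were present in some cells and near 0 in others. Mtap had a read in 78.9%, 90.2% and 66.3% of kept BCR-ABL cells before thinning and in 92.6% of Control cells. The share of cells with 10 or more thinned Asns reads was 55.4%, 51.9% and 38.3% in BCR-ABL and 31.1% in Control (exact 95% interval 21.8 to 41.7%). The intervals of the BCR-ABL shares ran from 42.5 to 67.7%, from 37.8 to 65.7% and from 27.7 to 49.7%. Each interval describes the counting error of 1 set and compares no conditions. For Mthfd2 the shares were 55.4%, 63% and 33.3% in BCR-ABL and 45.6% in Control, and for Mtap they were 61.5%, 75.9% and 53.1% in BCR-ABL and 68.9% in Control. Phgdh passed 10 reads in 96.9%, 100% and 96.3% of BCR-ABL cells and 97.8% of Control cells. Without molecular identifiers these intervals cover counting error only.

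Taking the 10 enzymes as a set per cell, all 10 reached 10 reads in 19 of 65, 15 of 54 and 9 of 81 BCR-ABL cells and in 2 of 90 Control cells. Their summed level had a median of 1207, 1424 and 895 CPM in BCR-ABL and 1052 CPM in Control. The coefficient of variation of that sum was 48.6%, 50.5% and 53.9% in BCR-ABL and 43.9% in Control. The medians overlapped between the groups, whereas the coefficient of variation was higher in each BCR-ABL set. The count of cells and the coefficient were not computed for other sets of genes, so nothing particular to these enzymes is read from them. Asns alone passed 10 reads in 31.1% of Control cells, which limits the count of cells with all 10.

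**Figure D2:**
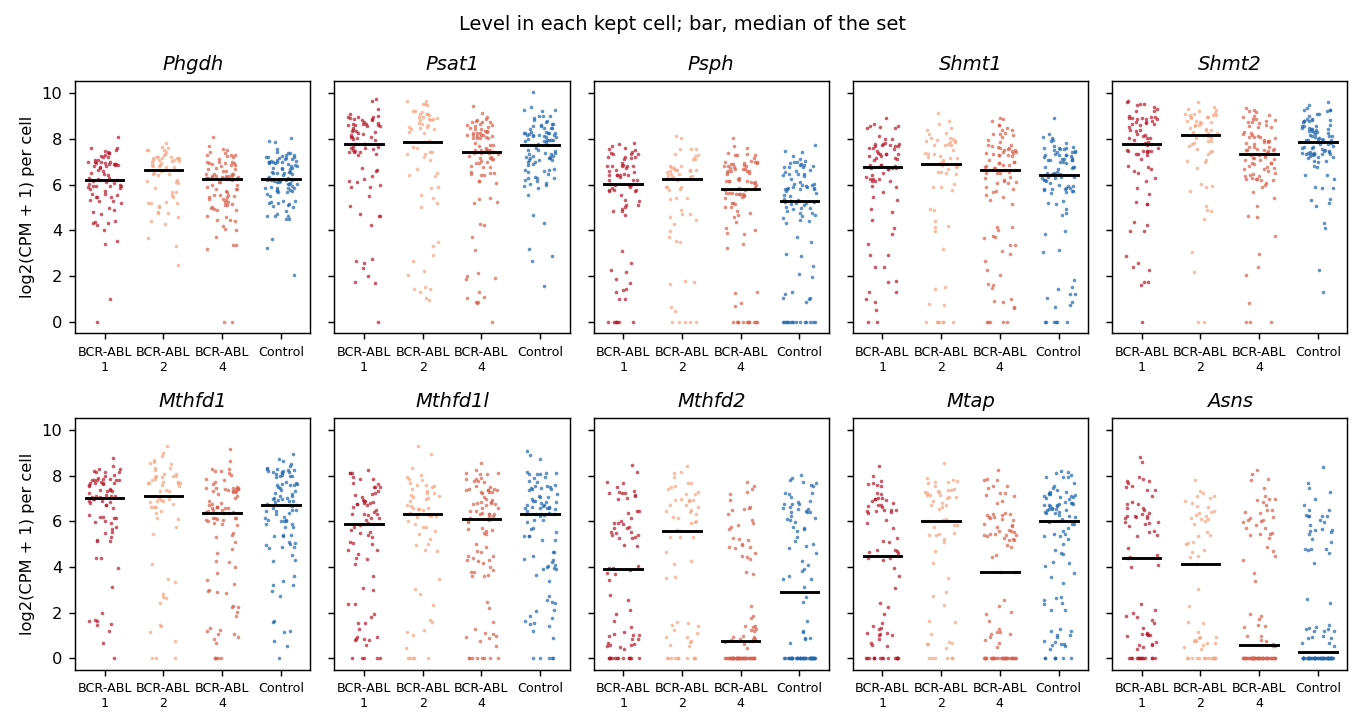
Each dot is 1 kept cell, placed at log2(CPM + 1) of the gene named above the panel, for BCR-ABL replicates 1, 2 and 4 (red and orange) and Control (blue); black bars are set medians. Phgdh forms 1 band in every set, while Mthfd2 and Asns split into cells with reads and cells with few or none. Mtap has few cells without reads in replicate 2 and Control, and the Asns median lies near 0 in replicate 4 and Control.

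The next question was whether the enzymes varied together from cell to cell. Pearson correlations of log2(CPM + 1) were computed within each set over thinned cells, which share a plate, a depth and a source of animals. Over the 45 pairs the median r was 0.28, 0.34 and 0.27 in BCR-ABL and 0.13 in Control. Pairs of all 9044 common genes had medians of 0.041, 0.033 and 0.030 in BCR-ABL and 0.015 in Control. Positive values were found for 44, 45 and 43 of the 45 pairs in BCR-ABL and 38 in Control.

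The pair with the highest mean was Shmt2 and Phgdh, with r of 0.63, 0.67 and 0.62 in BCR-ABL and 0.27 in Control. These enzymes stand at the entry to serine synthesis and at the mitochondrial use of serine, and their promoter windows are printed above. Shmt2 and Psat1 had r of 0.53, 0.53 and 0.27 in BCR-ABL and 0.50 in Control, the highest pair of the Control cells. Phgdh and Psat1, the first 2 steps of serine synthesis, had 0.54, 0.50 and 0.30 in BCR-ABL and 0.054 in Control. The cytosolic Mthfd1 and its mitochondrial relative Mthfd1l went the other way round, with 0.31, 0.17 and 0.38 in BCR-ABL and 0.46 in Control. Mtap and Asns were the pair with the lowest mean, at 0.14, 0.17 and 0.34 in BCR-ABL and -0.22 in Control. Asns was thus loosely tied to the rest, and in Control 5 of its 9 correlations were negative.

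**Figure D3:**
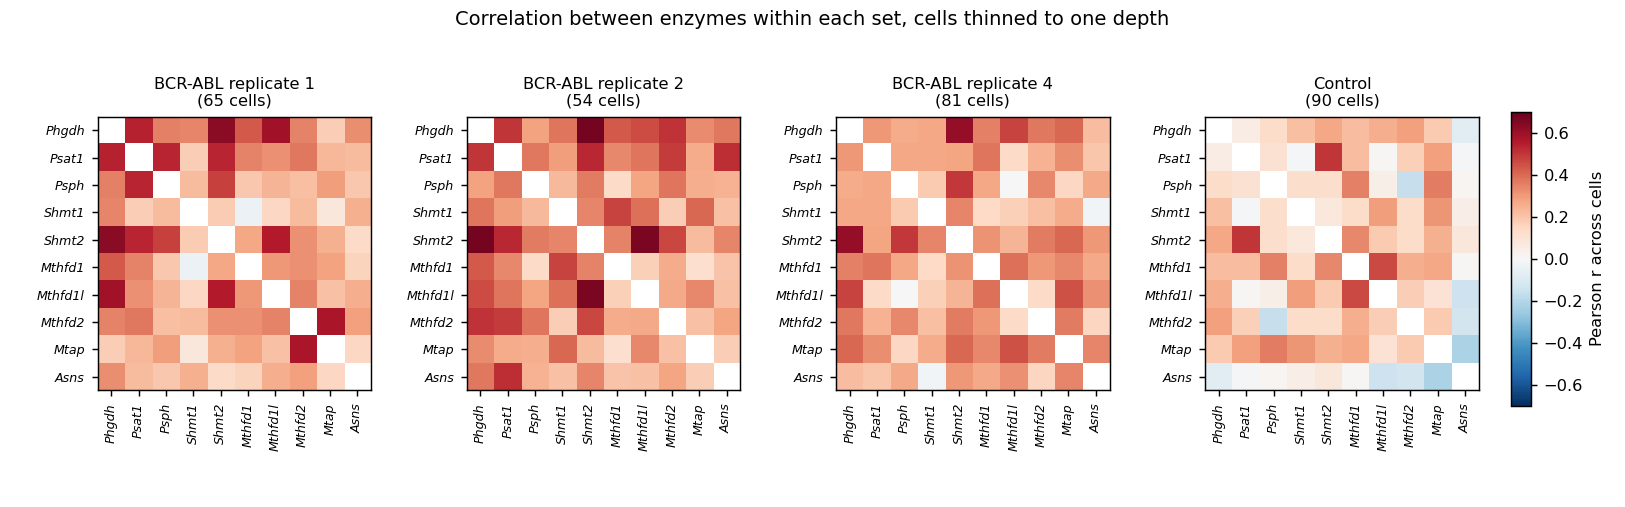
Pearson r between enzymes across the thinned cells of BCR-ABL replicates 1, 2 and 4 and of Control, on 1 colour scale (red positive, blue negative). The Shmt2 and Phgdh square is the darkest or near it in the BCR-ABL sets (0.63, 0.67 and 0.62) and pale in Control (0.27), where the Asns row is partly blue.

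Part of this joint variation followed how many genes a cell showed. The median r of the enzymes with the number of genes detected was 0.46, 0.47 and 0.45 in BCR-ABL and 0.22 in Control, where all common genes had 0.21, 0.19 and 0.18 in BCR-ABL and 0.12 in Control. These genes were counted before thinning. With the log of the gene reads before thinning the median r was 0.37, 0.36 and 0.35 in BCR-ABL and 0.15 in Control. All common genes had 0.12, 0.14 and 0.11 in BCR-ABL and 0.057 in Control with those reads. After regression on the number of genes detected, an alternative added after the data were seen, the median over pairs was 0.14, 0.14 and 0.18 in BCR-ABL and 0.10 in Control. Regression on the S phase and G2/M scores left 0.13, 0.095 and 0.22 in BCR-ABL and 0.052 in Control. The pairs stayed positive at the median in all 4 sets, and the gap between BCR-ABL and Control was smaller on the first of these scales.

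Among all common genes outside the list, those most like each enzyme were ranked by mean r over the 4 sets. Phgdh was nearest to Pa2g4 (mean r 0.61), a growth-regulated protein that binds ErbB3 and ribosomes, and then to the translation factor Eif5a (0.60) and the chaperone partner Fkbp4 (0.60). Psat1 was nearest to Fkbp4 (0.55) and Pa2g4 (0.52). Shmt2 was nearest to lactate dehydrogenase Ldha (0.52), to Ruvbl2 (0.52), an ATPase of chromatin complexes, and to Ranbp1 (0.50), a partner of the transport GTPase Ran. Mthfd2 was nearest to Ran itself (0.49) and to nucleolin, Ncl (0.49), which also led for Mthfd1 (0.41) and Mtap (0.50). For Shmt1 it was the spermidine synthase Srm (0.44), for Mthfd1l the chaperonin subunit Cct8 (0.44) and for Psph again Ruvbl2 (0.43). Asns had no close neighbour: its highest value was 0.30, with Sdhd, a subunit of succinate dehydrogenase.

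The relation to the cell cycle was described with a score of 43 S phase genes, none of them an enzyme of the list. The median r of the 10 enzymes with this score was 0.47, 0.53 and 0.33 in BCR-ABL and 0.24 in Control. Over all common genes the median was 0.14, 0.12 and 0.068 in BCR-ABL and -0.00025 in Control. Shmt2 had the highest value in replicates 1 and 2 and in Control, with 0.67, 0.64 and 0.36 in BCR-ABL and 0.51 in Control. Asns had 0.20, 0.26 and 0.24 in BCR-ABL and 0.011 in Control, and Psph 0.30, 0.59 and 0.23 in BCR-ABL and -0.053 in Control. The median r with a G2/M score was lower, at 0.25, 0.22 and 0.053 in BCR-ABL and 0.068 in Control. All common genes had 0.13, 0.11 and 0.074 in BCR-ABL and 0.061 in Control with that score, so the enzymes were below this background in replicate 4 and close to it in Control.

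When the cells of a set were divided into 3 equal parts by S phase score, all 10 enzymes had more CPM in the upper part than in the lower part, in each of the 4 sets. The median log2 ratio was 0.89, 1.30 and 1.01 in BCR-ABL and 0.84 in Control, and over all common genes it was 0.012, 0 and 0.022 in BCR-ABL and -0.025 in Control. The sets were alike in direction, and the BCR-ABL medians all lay above that of Control. Mthfd2 had the widest range: it stood at 96.3 against 17.4 CPM in replicate 1, at 126 against 26.8 CPM in replicate 2, at 53.4 against 5.16 CPM in replicate 4 and at 66.2 against 22 CPM in Control. Shmt2 was 2.98, 2.34 and 2.63 times higher in the upper part in BCR-ABL and 2.26 times higher in Control. Asns was 1.35, 2.44 and 2.23 times higher in BCR-ABL and 1.25 times in Control. The upper parts also showed more genes per cell, counted before thinning, in BCR-ABL (medians of 10148, 10033 and 9899 against 9245, 9088 and 9240) but not in Control (9088 against 9080). In BCR-ABL they also had more gene reads before thinning, with medians of 1798130, 2734780 and 1935680 against 1384570, 1507370 and 1483690. Control had fewer, 1238280 against 1418830. The part of genes and depth in the ratios was not tested. For the correlations, removing the number of genes detected left a median r with the S phase score of 0.27, 0.36 and 0.22 in BCR-ABL and 0.27 in Control, where the groups overlapped.

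The relation to fate was described with scores of 18 neutrophil and 18 monocyte genes. The median r with the neutrophil score was -0.23, -0.28 and -0.34 in BCR-ABL and -0.049 in Control. Over all common genes it was -0.055, -0.074 and -0.071 in BCR-ABL and 0.0026 in Control. With the monocyte score the enzymes had 0.31, 0.28 and 0.088 in BCR-ABL and -0.00043 in Control, and all common genes had 0.12, 0.093 and 0.053 in BCR-ABL and 0.016 in Control. The shift between the groups was thus in part shared by all genes, and replicate 4 was close to its background with the monocyte score. Mtap had the lowest value with the neutrophil score in replicates 1 and 4, and Mthfd2 had it in replicate 2 and Control. Mtap had -0.58, -0.085 and -0.46 in BCR-ABL and -0.026 in Control, and Mthfd2 had -0.36, -0.55 and -0.34 in BCR-ABL and -0.34 in Control. Mthfd2 was thus alike in both groups. Psph differed in sign, with -0.41, -0.21 and -0.10 in BCR-ABL and 0.32 in Control. Asns was near 0 with the neutrophil score in all BCR-ABL sets, between -0.044 and 0.00018, and had 0.11 in Control.

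**Figure D4:**
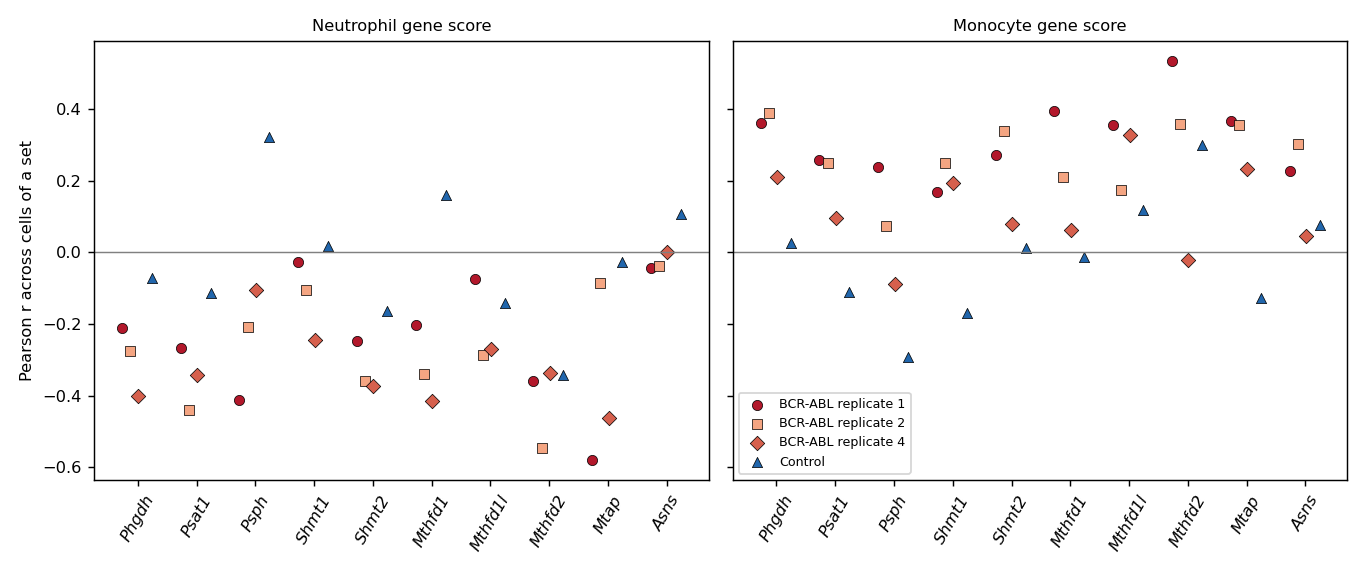
Pearson r of each enzyme with the neutrophil score (left panel) and the monocyte score (right panel) across the thinned cells of a set; red and orange symbols are the BCR-ABL sets and blue triangles Control. Most BCR-ABL symbols lie below 0 on the left and above 0 on the right, while the Control triangles scatter around 0 with Psph at 0.32 and Mthfd2 at -0.34 on the left.

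The median over enzymes of the neutrophil r minus the monocyte r was -0.55, -0.51 and -0.45 in BCR-ABL and 0.014 in Control. It was -0.35, -0.24 and -0.36 in BCR-ABL and 0.13 in Control after regression on the cell cycle scores. After regression on the number of genes detected it was -0.23, -0.28 and -0.23 in BCR-ABL and 0.036 in Control. The sign held in the BCR-ABL sets on each scale. Sets differ in these fate genes themselves: of 17 neutrophil genes tested 15 were above Control in all BCR-ABL sets, and of 18 monocyte genes 17 were below it, with 0 passing edgeR's test.

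Irf8, a transcription factor of the monocyte branch, and Gfi1, one of the neutrophil branch, were also used singly to divide the cells. Irf8 is in the monocyte score and Gfi1 in the neutrophil score, so this division is not independent of those scores. A limit of 10 thinned reads, taken from an earlier look at these data, divides a range of levels and not cell types. Cells at or above it for Irf8 numbered 27 of 65, 34 of 54 and 16 of 81 in BCR-ABL and 76 of 90 in Control. The enzymes stood higher in the cells with Irf8, with a median log2 ratio of 0.62, 0.61 and 0.63 in BCR-ABL, where all 10 were positive, and 0.13 in Control, where 7 were. Over all common genes the median was 0.044, 0.039 and 0.020 in BCR-ABL and 0.011 in Control. The share of all genes with a positive ratio was not counted. Mthfd2 stood at 105 against 22.4 CPM in replicate 1, at 87.3 against 44.2 CPM in replicate 2, at 40.003 against 19.7 CPM in replicate 4 and at 48.4 against 35.9 CPM in Control. Asns had its highest ratio in Control, 25.3 against 3.49 CPM, but the 14 Control cells without Irf8 held only 33 Asns reads.

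Cells with Irf8 also showed more genes before thinning, with medians of 10213, 10033 and 10198 against 9227, 9177 and 9361 in BCR-ABL and 9126 against 8932 in Control. In replicates 1 and 2 they were more frequent in the upper part by S phase score, with 15 and 15 such cells against 3 and 7 in the lower part, whereas replicate 4 had 6 against 5 and Control 26 against 23. The part of these differences in the ratios was not tested. The Gfi1 limit gave the opposite sign in replicates 1 and 2, with median log2 ratios of -0.56 and -0.58, and values near 0 in replicate 4 (-0.054, with only 6 cells under the limit) and in Control (-0.022). Over all common genes the Gfi1 medians were -0.0022, -0.034 and 0.060 in BCR-ABL and 0.0057 in Control.

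**Figure D5:**
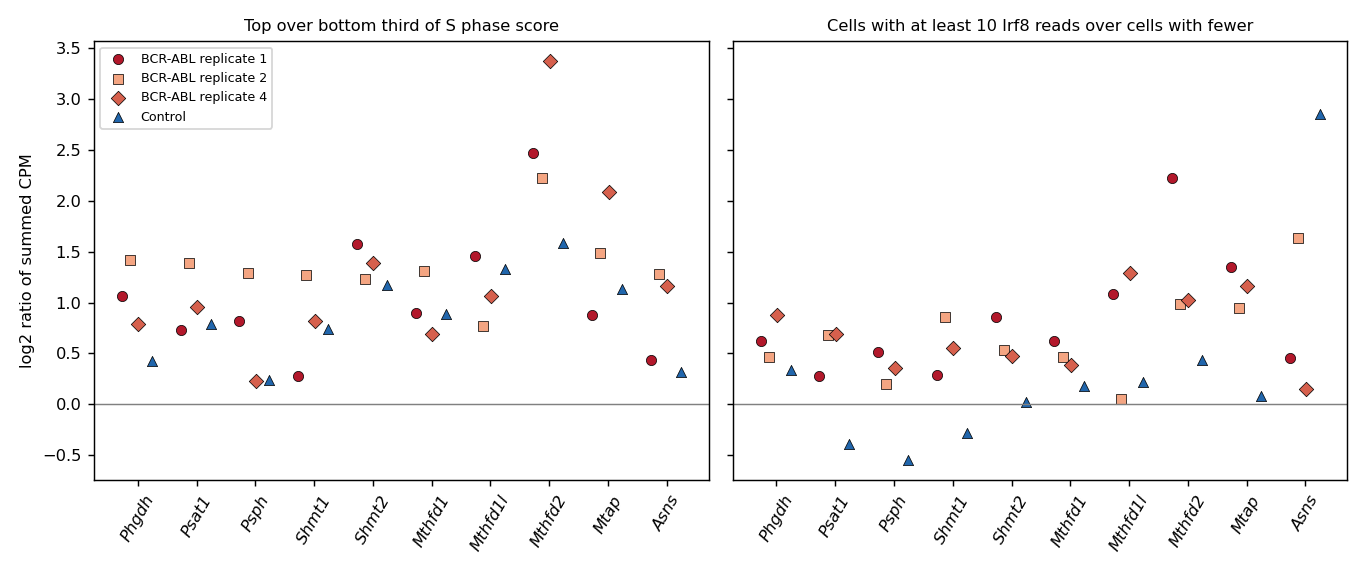
Left, log2 ratio of summed CPM between the upper and lower of 3 equal parts of the cells by S phase score; right, the same ratio between cells with at least 10 Irf8 reads and cells with fewer. All symbols lie above 0 on the left (BCR-ABL red and orange, Control blue), and on the right Shmt1, Psat1 and Psph have BCR-ABL symbols above 0 and the Control triangle below.

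Genes that border on these enzymes were counted from lists chosen by pathway. None of them passed edgeR's test. Over all genes tested, 54.2% had a positive log2 difference, 24.2% were above Control in all BCR-ABL sets and 26.6% below, and the counts below are given beside these shares without a test. Of 18 tested genes of the folate cycle and folate transport, 8 had a positive log2 difference (median -0.0021), 4 were above Control in all BCR-ABL sets and 2 below. Slc46a1, a proton-coupled folate transporter, had 4.27, 12.2 and 11.8 CPM in BCR-ABL and 1.18 CPM in Control (edgeR adjusted p 0.646). Tyms, the thymidylate synthase that uses the one-carbon unit, had 136, 171 and 108 CPM in BCR-ABL and 174 CPM in Control, below Control in all BCR-ABL sets. Of 14 genes of glycine and serine use, 7 were positive, 2 above in all sets and 3 below. Ptdss1, which puts serine into phosphatidylserine, had 85.4, 80.4 and 81 CPM in BCR-ABL and 112 CPM in Control (adjusted p 0.669).

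The methionine and polyamine list had 11 of 18 positive, with 6 above in all sets and 3 below. In it Mri1, the enzyme after Mtap in methionine salvage, had 115, 112 and 114 CPM in BCR-ABL and 88 CPM in Control, and Odc1, which opens polyamine synthesis, had 58.1, 63.8 and 54.1 CPM in BCR-ABL and 39.2 CPM in Control. Neither passed (adjusted p 0.696 and 0.669 by edgeR), and both stood above Control in all 3 BCR-ABL sets, unlike Mtap. Among 15 genes of asparagine and glutamine metabolism 6 were positive, 4 above in all sets and 4 below. The aspartate transaminase Got2 had 125, 117 and 88.7 CPM in BCR-ABL and 75.6 CPM in Control. Of 11 amino acid transporters 6 were positive, with 2 above in all sets and 2 below.

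A list of 23 genes of the ATF4 program, which includes aminoacyl-tRNA synthetases, had 18 positive with a median of 0.25, 9 above in all sets and 3 below. Nars, the asparaginyl-tRNA synthetase, had 408, 382 and 432 CPM in BCR-ABL and 253 CPM in Control (edgeR adjusted p 0.619), and the stress gene Sesn2 had 6.83, 8.27 and 6.10 CPM in BCR-ABL and 3.61 CPM in Control. Chac1 had 0.55, 4.10 and 3.23 CPM in BCR-ABL and 0.0071 CPM in Control, where it rests on 1 read and no ratio is given. Within sets, the median r of the 10 enzymes with the score of this list was 0.51, 0.45 and 0.39 in BCR-ABL and 0.20 in Control, against 0.17, 0.14 and 0.13 in BCR-ABL and 0.058 in Control over all common genes. This was not particular to the ATF4 list. The asparagine and glutamine list gave 0.54, 0.51 and 0.44 in BCR-ABL and 0.32 in Control. For the folate list the values were 0.47, 0.44 and 0.40 in BCR-ABL and 0.25 in Control. The methionine and polyamine list gave 0.47, 0.43 and 0.43 in BCR-ABL and 0.19 in Control. The glycine and serine list and the transporter list were below the ATF4 list in each set. Atf4 itself gave 0.10, 0.092 and 0.22 in BCR-ABL and 0.029 in Control, and Myc gave -0.018, -0.071 and 0.15 in BCR-ABL and 0.11 in Control. All common genes had 0.11, 0.0031 and 0.091 in BCR-ABL and 0.0025 in Control with Atf4, so the enzymes were not above this background in replicate 1. With Myc all common genes had -0.040, -0.052 and 0.060 in BCR-ABL and 0.027 in Control. Single enzymes differed in their relation to Atf4. Mthfd2 was above the median of the 10 in every set, with 0.50, 0.18 and 0.38 in BCR-ABL and 0.13 in Control. Mtap was above it except in replicate 2, with 0.44, 0.078 and 0.29 in BCR-ABL and 0.21 in Control. Shmt1 had -0.10, 0.25 and 0.12 in BCR-ABL and -0.10 in Control. The S phase list had 14 of 43 genes positive, with 2 above Control in all BCR-ABL sets and 15 below, and the G2/M list 20 of 42, with 6 above and 11 below.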

How the data were processed

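Single GMPs were sorted into plates and sequenced with SMART-seq2 and Nextera XT, per the labels' protocols. The authors deposited raw counts of reads per Ensembl gene and well, made with GSNAP 2015-09-29, HTSeq 0.5.3p3 and mm10 per the submitters' processing notes. For the annotation release and the strand setting: not given in the sources used here. Of all reads 44.9% lay on genes; spike-ins (0.26%), unaligned (40.9%), no-feature (7.67%) and ambiguous (6.24%) reads were left out. Symbols came from GENCODE vM21.

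Counts of kept wells were added up within each set, and the 3 sums of BCR-ABL were tested against the single Control sum by edgeR 4.0.16 (quasi-likelihood, TMM, filterByExpr, Benjamini-Hochberg, threshold 0.05) in R 4.3.3, with DESeq2 1.42.0 and limma 3.58.1 as alternatives. The test takes the spread of the BCR-ABL sets for that of Control, which has 1 set, and p-values measure only the spread between sets, which may be technical. The scripts were tested on simulated data. Correlations used log2(CPM + 1) of cells thinned to 674952 reads (the 10 percentile of depth, with 33 shallower cells left out); no doublet caller was run, since each well was sorted to hold 1 cell. A score is the mean z score of its list.

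The 10 enzymes and all lists were chosen with earlier results of these data known. Named were all 10 enzymes, at most 4 genes per list with the smallest edgeR p, and the 3 most like genes of each enzyme among genes read in at least 50% of cells; of these a part is printed, chosen after their values were seen. Promoter windows are RefSeq's. Alternatives were other scaling, filters, pseudocounts (10 for 1), thinning, rank correlation, residuals and leaving out sets.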

Additional observations from a re-analysis of the deposited data

Results flagged for a closer look

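Shmt1, Psat1 and Psph had opposite signs in Control and in all 3 BCR-ABL sets when cells with at least 10 Irf8 reads were set against cells with fewer. The log2 ratio of Shmt1 was between 0.29 and 0.86 in BCR-ABL and -0.29 in Control. For Psat1 it was between 0.28 and 0.70 in BCR-ABL and -0.39 in Control, and for Psph between 0.20 and 0.51 in BCR-ABL and -0.55 in Control. With the Gfi1 limit, Shmt1 had ratios between -0.49 and -0.18 in BCR-ABL and 0.12 in Control, and Psat1 between -0.92 and -0.50 in BCR-ABL and 0.049 in Control. These differences were not tested, Control is 1 set, and the 2 limits divide the same cells. The ratios in Control rest on 14 cells without Irf8, and those of replicate 4 on 6 cells without Gfi1.

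The 61 wells that missed the filter still held 658 reads of the 10 enzymes among 622906 gene reads, a summed level of 1056 CPM, and 60 of them had at least 1 such read. A count of 0 would have allowed 4.82 CPM. By set there were 226, 200 and 180 reads in BCR-ABL wells and 52 in Control wells.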

How the results depend on the processing

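Of 58 alternative values of the main counts and correlations, 51 were close to the value reported. For counts, close meant within a factor of 1.5. For correlations it meant within the SD over the 4 sets, which includes the gap between BCR-ABL and Control. That SD was 0.13 for the S phase score, 0.090 between enzymes and 0.26 for the neutrophil minus monocyte difference. The value of -0.18 for that difference after regression on genes detected, and 0.28 for the S phase score, thus counted as close. DESeq2 called 562 genes where edgeR called 0. Leaving out 1 BCR-ABL set at a time gave 3 to 9 enzymes above Control in all remaining sets, the 9 without replicate 4. In that setting 6546 of 19235 genes were above Control. It gave 0 to 1 enzymes below, the 1 (Mtap) without replicate 2, where 6849 of 19878 genes were below. Scaling per spike-in read gave 6 enzymes above, beside 6696 of 20324 genes. Averaged over sets, the median r was 0.39 with the S phase score and 0.26 between enzymes. With the G2/M list in place of the S phase list the first was 0.15. The second was 0.12 after regression on the cycle scores and 0.14 after regression on the number of genes detected. The causes were not tested. Leaving out each set gave 0.35 to 0.44, 0.23 to 0.30 and, for the neutrophil minus monocyte difference (-0.37), -0.50 to -0.31. Of 80 alternative log2 differences of single enzymes 9 had the opposite sign, 6 of them from averaging log values over cells and the other 3 for Mtap. No paired analysis was possible because Control is a single set. With 1 Control set, condition and plate cannot be told apart.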
